A study of Homo sapiens with 24 samples.

Results

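MGEA5 is the older symbol of OGA, the gene for O-GlcNAcase. The count tables divide it into 20 bins, all of which are described here, out of 164219 bins in 13236 genes. The bins were taken by their gene name alone, whatever their values. Of the 20, 18 are bins outside detained introns and 2 are detained introns, a class of intron left unspliced in polyadenylated RNA that is held in the nucleus. No bin of another gene overlaps the span of MGEA5, which lies on the minus strand of chromosome 10 (hg19, 103544198 to 103578222, 34025 bases).

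O-GlcNAc is a single sugar that the transferase OGT puts on serines and threonines of proteins inside the cell and that O-GlcNAcase takes off. Both genes are known for transcripts that keep an intron, and splicing of these introns is known to respond to the level of O-GlcNAc. A transcript that keeps an intron and stays in the nucleus is not translated.

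All libraries came from HEK293T, an established line of human embryonic kidney origin that carries SV40 large T antigen. Cells were treated for 2 h or 6 h with the OGT inhibitor OSMI-2 (10 µM), with TMG (Thiamet-G, 5 µM), which inhibits O-GlcNAcase itself, or with the solvent DMSO. Each drug and time had DMSO libraries of its own, in 8 groups of 3 libraries of polyadenylated RNA. The exception was OSMI-2 at 6 h, with 2 libraries; the third was not analysed here. Libraries carry the letters a, b and c, and the labels do not say whether they came from separate cultures, so p-values measure only the spread between these libraries. Total counts per library ran from 39465746 to 100161560, and MGEA5 had 2027 to 12238 counts outside its detained introns. All 8 HEK293T markers listed for the check were in the tables, and of 6 markers of other cell types 5 were not listed. The fibroblast marker COL1A1 had 5.69 to 24.5 CPM (counts per 1000000 counts of the library, after TMM scaling). Of the HEK293T markers, LHX1 had 0.0785 to 0.475 CPM, NEFM 0.273 to 2.77 CPM and PAX2 1.14 to 4.31 CPM. CDH2, VIM, KRT8, KRT18 and NEFL had at least 8.91 CPM in every library.

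Bins are numbered from the 3′ end of the gene, E001, to the 5′ end, E020. E020 (642 bases) is classed by the authors as the constitutive first bin and E001 (2147 bases) as the constitutive last bin. E015 and E019 are classed as constitutive internal bins, and E014 (99 bases) and E017 (133 bases) as cassette exons. The detained intron E003 (chr10:103547281-103550652, 3372 bases) fills the whole intron between the exons E004 and E002. The detained intron E008 (chr10:103553756-103555130, 1375 bases) is the 3′ part of a longer intron and adjoins E007, whose 313 bases begin with an exon of 86 bases in GENCODE. The other 227 bases of E007 lie 3′ of that exon. Directly 5′ of E008, in the same intron, lies E009 (chr10:103555131-103555728, 598 bases), which the authors left unclassified and did not label as detained. A further 2008 bases between E009 and the exon E010 (175 bases) are in no bin, and the whole intron has 3981 bases in hg19 and in the GRCh38 annotation alike.

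This long intron is also where the short form of the enzyme ends. In GENCODE, transcript OGA-203 runs on from E010 for 934 bases into the intron and stops there, which gives it a last exon of 1109 bases. That stretch falls within the 2008 bases that no bin covers, so the tables hold no count of the short end itself. The splice sites that GENCODE transcripts cover are given here because they bound the introns whose counts moved or did not move. They are GRCh38 reference sequence on the minus strand, with the GT or AG of the splice site in capitals. The donor line (chr10:101797933-101797991) holds 12 bases of exon E010 and then the first 47 bases of the long intron, and each acceptor line holds the last 60 bases of an intron and then 12 bases of exon. The acceptor of E008 is at chr10:101793987-101794058 and that of E003 at chr10:101787512-101787583.
E010 donor end: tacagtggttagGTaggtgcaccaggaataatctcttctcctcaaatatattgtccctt
E008 acceptor end: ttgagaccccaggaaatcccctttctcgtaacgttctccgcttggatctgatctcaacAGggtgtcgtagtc
E003 acceptor end: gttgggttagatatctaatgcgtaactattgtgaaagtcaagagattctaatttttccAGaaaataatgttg

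In the 20 bases before the AG, both acceptors hold 12 pyrimidines, of which 6 are T in E008 and 8 are T in E003. The donor side of E003 and the rest of E008 are not shown.

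The level of the gene is the total of its 18 bins outside detained introns. MGEA5 was lower with OSMI-2 and higher with TMG at 6 h. With DMSO at 6 h in the OSMI-2 experiment the 3 libraries had 167, 97.3 and 130 CPM, and the 2 OSMI-2 libraries had 43.2 and 36.0 CPM. Both OSMI-2 libraries thus lay below all controls, and the level fell by 1.93 on the log2 scale (SE 0.33; quasi-likelihood test of edgeR with Benjamini-Hochberg adjustment, adjusted p = 1.36e-04). Across all tested genes 4.94% passed this threshold of 0.05, and 2.37% were lower. That background moved with single libraries: 617 genes were called with all 5, 5268 without DMSO library a, 322 without DMSO library b, 129 without DMSO library c and 0 without either OSMI-2 library (1050 and 682 at an unadjusted p under 0.05 without a and b). The slope of counts on GC content of genes (log2 per 10 points) was 0.229 in DMSO library a and 0.806 to 0.930 in the other 4. The call rests on both treated libraries: without OSMI-2 library a the adjusted p from edgeR was 0.1618, and without library b 0.4711. The median gene in this fit moved by 0.15 on the log2 scale. With the scaling set over genes only, which put the median gene at -0.09, the change of MGEA5 was -2.16 in edgeR, and the calls over all genes were 33 higher and 481 lower in place of 321 and 296.

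At 6 h with TMG the 3 libraries had 242, 249 and 248 CPM, against 131, 150 and 158 CPM in their controls. The groups did not overlap, and the level rose by 0.72 (log2; SE 0.06; edgeR adjusted p = 6.01e-06), with 6.03% of all genes called and 1.19% called higher. Leaving out 1 library moved the 730 genes called to between 89 (without TMG library b) and 1248 (without DMSO library a), and MGEA5 passed each time. Its direction held in a fit of all 23 libraries, where the edgeR adjusted p was 0.08486 and 2 of 12716 genes were called.

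The 2 h levels moved less. With OSMI-2 the 3 libraries had 68.1, 68.7 and 55.5 CPM against 91.6, 108 and 80.8 CPM in DMSO. The groups did not overlap, but the log2 change of -0.63 (SE 0.20) did not pass (edgeR adjusted p = 0.9996, unadjusted p = 0.00963), in a comparison where 0.0% of genes were called. With TMG they had 130, 139 and 140 CPM against 114, 119 and 127 CPM in DMSO. That difference of 0.14 (log2; SE 0.05) had an edgeR adjusted p of 0.08483, in a comparison where 7.91% of genes were called (978, and 243 to 1212 with 1 library left out). DESeq2 called it, with an adjusted p of 0.01474, as did edgeR scaled over genes only (adjusted p = 0.03857).

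Set in order, the group means ran from 246 CPM (TMG 6 h) through 146 (its DMSO), 136 (TMG 2 h), 131 (DMSO 6 h, OSMI-2 experiment), 120 (DMSO 2 h, TMG experiment), 93.5 (DMSO 2 h, OSMI-2 experiment) and 64.1 (OSMI-2 2 h) to 39.6 CPM (OSMI-2 6 h). The second to the fifth of these overlapped with their neighbours in the order. The TMG 6 h group and the lowest 3 were each apart from the next. Groups further apart in the order could still overlap. In the OSMI-2 experiment DMSO at 2 h had 80.8 to 108 CPM and DMSO at 6 h 97.3 to 167 CPM. Levels were compared across the experiments on 1 scaling of all libraries, and the experiments also differ in how counts are spread along the gene, as given below.

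**Figure D1:**
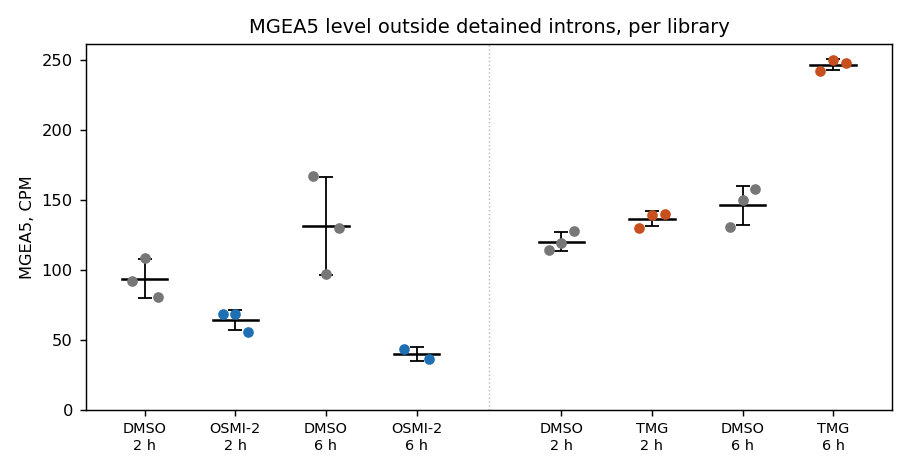
MGEA5 level in CPM (bins outside detained introns, scaled over all libraries) for each library; points are libraries, bars the group mean and whiskers the SD, with the OSMI-2 experiment on the left and the TMG experiment on the right. The 3 TMG 6 h libraries lie at 242 to 249 CPM, above all others, and the 2 OSMI-2 6 h libraries at 36.0 and 43.2 CPM, below all others.

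The detained intron E008 was lower with OSMI-2 and higher with TMG at both times, and its group values never overlapped those of the controls. Shares are given as a percent of the counts of MGEA5 outside detained introns, so that a change in the level of the gene alone does not move them. With TMG at 2 h the share was 4.27%, 4.44% and 3.94% in libraries a, b and c, against 1.90%, 2.25% and 1.86% in DMSO. All 3 treated libraries were higher, and the share rose by 1.06 on the log2 scale, or 2.09 fold (SE 0.08; edgeR adjusted p = 0.007999). Among all bins tested 0.00218% passed, and of the 4031 tested detained introns 2 (0.0496%) rose, E008 being 1 of them. That count depended on the fit: 162 detained introns rose in edgeR without genes of a single bin, whose share is fixed at 100%, 120 with the other bins of the gene as denominator, 368 relative to library size and 36 in DESeq2. By the looser measure of a share higher in every treated library than in every DMSO library, 30.7% of them lay higher and 0.819% lower. Their median log2 change was 0.30.

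At 6 h with TMG the share of E008 was 3.97%, 5.10% and 4.17%, against 1.22%, 1.73% and 1.39% in DMSO. Every treated library was again higher, and the share rose by 1.60 (log2), or 3.04 fold (SE 0.13; edgeR adjusted p = 0.004273). Of all tested bins 0.00676% passed, and of 4181 detained introns 3 (0.0718%) rose. In 8.16% of them the share was higher in every treated library and in 1.32% lower, with a median log2 change of 0.15 over all. The rise was as large or larger relative to library size: 1.21 at 2 h and 2.32 at 6 h (log2, edgeR adjusted p = 7.83e-13 and 6.57e-13).

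These calls depended on some libraries, on the tool and on the single-bin genes held in the main fits. Without DMSO library c, TMG library a or TMG library b, the 2 h change lay between 1.01 and 1.05 and its edgeR adjusted p between 0.05493 and 0.06474. Without DMSO library c the 6 h change was 1.57 (edgeR adjusted p = 0.05362). In limma on log2 shares the adjusted p was 0.1457 at 2 h and 0.1447 at 6 h. Without single-bin genes the edgeR adjusted p for E008 was 3.27e-07 at 2 h, where 162 of 4031 detained introns rose, and 7.52e-07 at 6 h, where 4 of 4181 rose. The log2 change at 2 h was 1.06 with and without these genes. The fits with 1 library left out held them and were not repeated without them. How far the adjusted p of those fits reflects the library left out was therefore not tested.

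With OSMI-2 at 2 h the share of E008 was 0.289%, 0.403% and 0.376%, from 10 to 22 counts, against 0.88%, 1.01% and 0.875% in DMSO, from 27 to 42 counts. The groups were apart, and the log2 change was -1.36 (SE 0.20; unadjusted p = 9.06e-05). No bin of any gene passed in this comparison (0.0% of 120335 bins), and the edgeR adjusted p of E008 was 1. In the authors' deposited table the same bin had a log2 fold change of -1.31 and an adjusted p of 0.005981, 1 of 18 bins past 0.05 there, or 0.0111%. The 2 h libraries of this experiment differ in how strongly counts depend on the GC content of genes, with 2 OSMI-2 and 1 DMSO library in 1 set; with that set as a term the change was -1.31 (edgeR unadjusted p = 2.62e-04).

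With OSMI-2 at 6 h the share was 0.592% and 0.655%, against 2.93%, 2.76% and 1.97% in DMSO. Both treated libraries lay below all controls, and the share fell by 2.03 on the log2 scale (SE 0.30; edgeR adjusted p = 0.00506). Here the background is high: 4.93% of all bins passed, and of 4616 detained introns 75.8% were called lower and 0.0433% higher. In 91.6% the share was lower in both treated libraries than in all controls and in 0.715% higher, and the median log2 change was -1.64. A lower share was thus the common outcome for detained introns in this comparison. Without OSMI-2 library a the change was -1.97 (edgeR adjusted p = 0.06188) and without library b -2.11 (adjusted p = 0.09132).

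**Figure D2:**
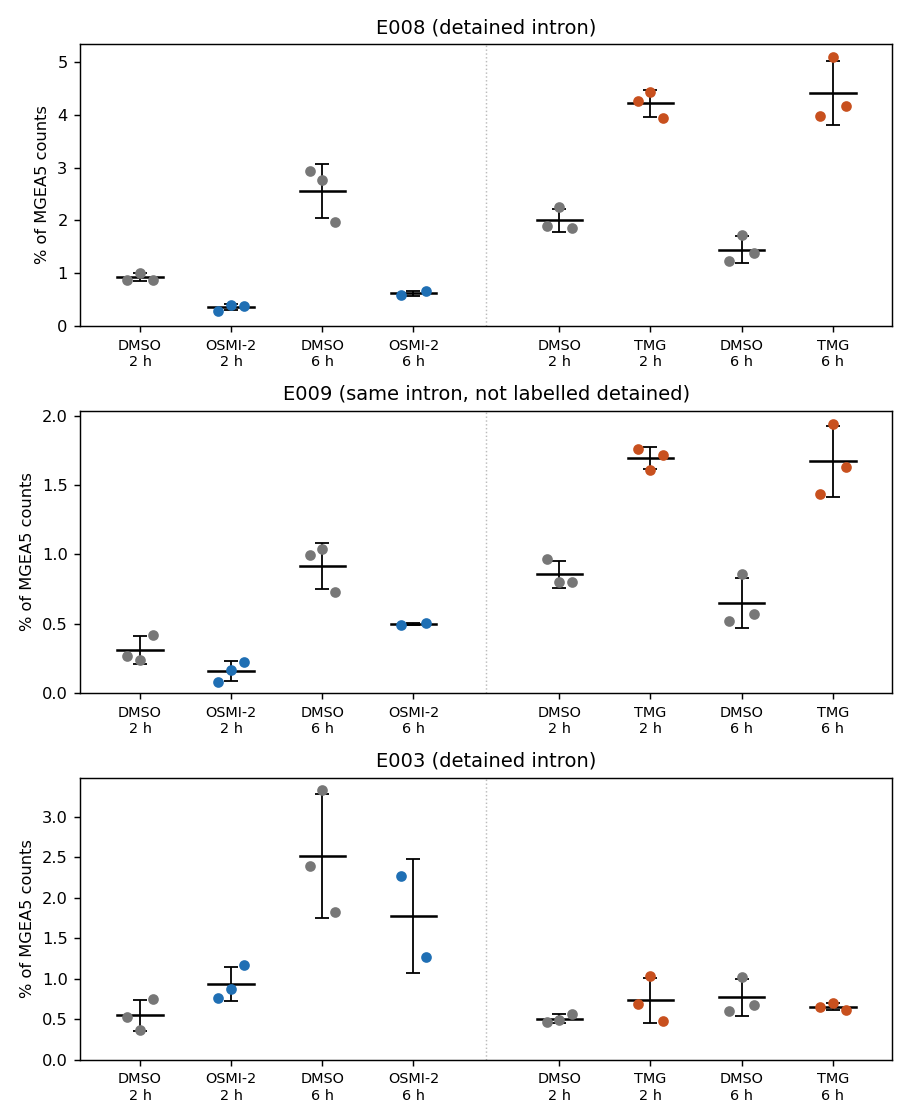
Share of the MGEA5 counts outside detained introns (percent) held by E008, E009 and E003 in each library, with the group mean and SD. E008 and E009 are apart from their DMSO libraries in all 4 comparisons, while E003 is apart only for OSMI-2 at 2 h.

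The effects of the drugs on E008 differed from each other when that difference was tested. At 2 h the OSMI-2 effect minus the TMG effect was -2.42 (log2; SE 0.22; edgeR adjusted p = 0.002075, 0.00222% of bins called). At 6 h it was -3.64 (SE 0.37; edgeR adjusted p = 2.28e-04). In the 6 h test 3.79% of all bins were called, 3.23% of all bins and 62.8% of detained introns lower in the same way, so the 6 h difference was shared with most detained introns, whereas at 2 h 3 of 3842 were called (0.0781%). The effects at 6 h and at 2 h of the same drug were not told apart: the difference was -0.67 for OSMI-2 (SE 0.41; edgeR adjusted p = 0.7377, with 1.65% of bins called and 31.8% of detained introns called lower) and 0.54 for TMG (SE 0.19; adjusted p = 1, 0.00147% of bins called).

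E009, the unclassified bin next to E008, differed from DMSO in the same direction as E008 in all 4 comparisons, and passed in none of their main fits. With TMG at 2 h it held 1.76%, 1.61% and 1.72% of the counts, against 0.968%, 0.798% and 0.803% in DMSO. At 6 h it held 1.44%, 1.94% and 1.63%, against 0.518%, 0.856% and 0.569%. Treated libraries were higher in both, by 0.99 (SE 0.10; edgeR adjusted p = 0.05655) and 1.35 (SE 0.18; adjusted p = 0.1458), which did not pass. Without single-bin genes both passed in edgeR, with adjusted p of 3.17e-04 and 9.54e-04, and in the authors' deposited table they had 1.06e-08 and 1.67e-05, where 0.247% and 0.0635% of all bins passed. Both also passed in DESeq2, with the other bins as denominator and relative to library size. E009 further passed at 2 h without the filter on low counts, and at 6 h in the fit of all libraries. In limma it passed at neither time.

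With OSMI-2 at 6 h E009 held 0.493% and 0.501%, from 10 and 13 counts, against 0.991%, 1.04% and 0.727% in DMSO. The treated libraries were lower, by -0.88 (SE 0.29), which did not pass (edgeR adjusted p = 0.1681). At 2 h it held 0.0789%, 0.165% and 0.225% with OSMI-2, from 3 to 9 counts, against 0.267%, 0.241% and 0.421% in DMSO, from 10 to 13 counts. Its mean count was under 10 there, so the share fit of that comparison left it out. In edgeR without the filter on low counts its log2 change was -0.98 (SE 0.41, unadjusted p = 0.03849), which did not pass after adjustment. The difference between the drugs at 6 h was -2.24 (SE 0.39; edgeR adjusted p = 0.005014; 0.0555 without OSMI-2 library b), and at 2 h it was -1.97 (SE 0.38; adjusted p = 1, unadjusted p = 1.60e-04).

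Counted per base, E009 and E008 were covered about alike. The ratio of E009 to E008 per base was 0.815 to 1.17 in the 12 libraries of the TMG experiment. In the OSMI-2 experiment it was 0.547 to 1.38 at 2 h, where counts are low, 0.777 to 0.862 with DMSO at 6 h, and 1.92 and 1.76 with OSMI-2 at 6 h. The 2 OSMI-2 libraries at 6 h were above all others, but their counts are low as well: 12 and 17 in E008 and 10 and 13 in E009. The log2 ratio of E008 to E009 differed by -1.15 between OSMI-2 and DMSO at 6 h. The exact permutation test (two-sided) gave p = 0.2, the smallest that 2 against 3 libraries can give, or 0.4 adjusted over the 4 comparisons. In the others the ratio differed by -0.36 (OSMI-2 2 h), 0.09 (TMG 2 h) and 0.23 (TMG 6 h).

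Against the exon E010 next to it, E008 per base stood at 3.44% ± 0.63 (SD, n = 3) with DMSO and 10.9% ± 1.75 (SD, n = 3) with TMG at 6 h. It stood at 7.99% ± 1.80 (SD, n = 3) with DMSO and 1.54% ± 0.04 (SD, n = 2) with OSMI-2 at 6 h. Its coverage was thus well below that of the exon in every group, from 0.828% to 12.8% over all libraries.

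**Figure D3:**
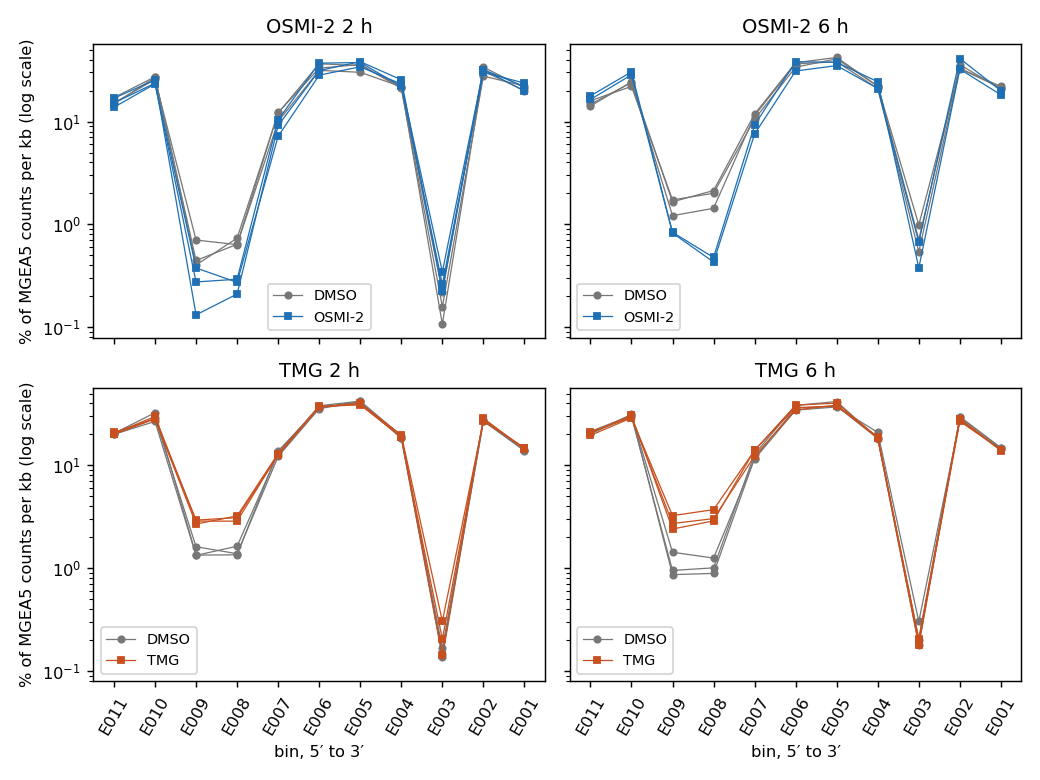
Percent of MGEA5 counts per kilobase (log scale) in bins E011 to E001, one line per library, for each drug and time. E009 and E008 lie together between the exons and are shifted between treated and DMSO libraries, whereas E003 lies lower still in most libraries and the lines of the exons run close to each other.

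The other detained intron, E003, passed in none of the 4 comparisons. With TMG it held 0.688%, 1.03% and 0.482% at 2 h and 0.654%, 0.695% and 0.609% at 6 h, against 0.46%, 0.497% and 0.565%, and 0.605%, 1.02% and 0.68% in DMSO. Both pairs of groups overlapped, with log2 changes of 0.52 (SE 0.26; edgeR adjusted p = 0.8379) and -0.24 (SE 0.18; adjusted p = 1). With OSMI-2 at 2 h it held 0.763%, 0.879% and 1.16% against 0.533%, 0.361% and 0.745%, which is higher in every treated library by 0.78 (SE 0.27; edgeR adjusted p = 1, unadjusted p = 0.01922). Among tested detained introns 2.67% were higher in every treated library there, and 6.59% lower.

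At 6 h with OSMI-2 E003 held 2.27% and 1.27%, against 2.40%, 3.34% and 1.82% in DMSO. The groups overlapped (log2 change -0.53, SE 0.34; edgeR adjusted p = 0.5674), while 75.8% of detained introns were called lower. The log2 ratio of E008 to E003, a comparison chosen after the values were seen, differed from its controls by -2.15 at 2 h and -1.46 at 6 h with OSMI-2, and by 0.61 and 1.82 with TMG. In the exact permutation tests (two-sided) p was 0.1, 0.2, 0.2 and 0.1 in that order, and 0.2 for each when adjusted over the 4. The smallest p that 3 against 3 libraries can give is 0.1, and 2 against 3 libraries 0.2.

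The controls themselves differed between the times. In the OSMI-2 experiment all 3 intron bins were higher with DMSO at 6 h than at 2 h: E003 by 2.22 (SE 0.31; edgeR adjusted p = 0.001974), E008 by 1.47 (SE 0.19; adjusted p = 0.001504) and E009 by 1.60 (SE 0.25; adjusted p = 0.003931). In that comparison 9.19% of all bins passed and 81.6% of detained introns rose, with a median of 1.74. In the TMG experiment E008 was lower at 6 h than at 2 h, by -0.48 (SE 0.13; edgeR adjusted p = 0.09553), although 9.1% of detained introns rose and 0.417% fell, and 2.34% of all bins were called. Without single-bin genes that fall passed (edgeR adjusted p = 0.03). E003 and E009 did not pass there (log2 0.60 and -0.39; edgeR adjusted p = 0.2031 and 0.379).

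The ranking of E008 by group mean thus mixes drug, time and experiment. It ran from 4.42% (TMG 6 h) and 4.22% (TMG 2 h), which overlapped, to 2.56% and 2.00% (DMSO 6 h of the OSMI-2 experiment and DMSO 2 h of the TMG experiment), which overlapped as well. Below them came 1.45% (DMSO 6 h, TMG experiment), 0.922% (DMSO 2 h, OSMI-2 experiment), 0.624% (OSMI-2 6 h) and 0.356% (OSMI-2 2 h), each apart from the next.

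The 17 bins outside both introns did not pass in any of the 4 drug comparisons. Of those tested, 16 at OSMI-2 2 h and 17 in the others, 0 passed in edgeR. An unadjusted p under 0.05 was seen for 1, 6, 3 and 3 (OSMI-2 2 h, OSMI-2 6 h, TMG 2 h, TMG 6 h). Over all bins tested it was seen for 3479 of 120335, 18963 of 131312, 8586 of 137435 and 6369 of 133165 in that order. Their log2 changes ran from -0.33 to 0.20, from -0.42 to 0.45, from -0.26 to 0.06 and from -0.18 to 0.16, with medians of -0.05, 0.18, -0.02 and 0.00. The medians of all bins tested were 0.01, 0.01, 0.00 and 0.00. In size, the changes of the bins outside both introns were small beside those of E008.

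Shares of groups that did not overlap are a looser measure. Of the 20 bins, 12 did not overlap between OSMI-2 and DMSO at 6 h, 7 of them higher and 5 lower, where 15.4% and 15.5% of all bins did so in each direction. Percentages are over the bins with a mean count of at least 10. At OSMI-2 2 h, 2 of the 18 MGEA5 bins past that minimum were higher and 2 lower (4.21% and 3.65% of all bins), and E009, under it, was lower as well. With TMG 3 were higher and 3 lower at 2 h (6.25% and 6.06%), and 4 and 1 at 6 h (5.29% and 5.36%). At OSMI-2 6 h the 7 that were higher were E010, E011, E014, E015, E016, E019 and E020, all 5′ of the long intron. Among the 5 lower were E008, E009, E007, E005 and the last bin E001.

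At the 5′ side of the intron, E010 held 4.98% and 5.32% with OSMI-2 at 6 h against 3.85% to 4.24% in DMSO, a log2 change of 0.33 (SE 0.09; edgeR adjusted p = 0.1027). At the 3′ side, E007 held 2.37% and 2.89% against 3.30% to 3.70%, a change of -0.42 (SE 0.12; edgeR adjusted p = 0.1253). The counts do not tell the exon of E007 from the 227 bases 3′ of it. Neither passed. With all 23 libraries fitted together E010 did pass (edgeR adjusted p = 0.03932), as did its effect at 6 h minus that at 2 h (0.48, adjusted p = 0.03066), and E001 passed with the other bins as denominator (log2 -0.28, edgeR adjusted p = 0.03291). The authors' deposited table, in which 6.46% of all bins passed at OSMI-2 6 h, had adjusted p of 0.01977 for E010, 0.04779 for E011 and 0.0335 for E020, with log2 fold changes of 0.28, 0.16 and 0.41. The drug difference at 6 h was 0.37 for E010 and -0.58 for E007 (edgeR adjusted p = 0.05291 and 0.05062). Without single-bin genes both passed, with edgeR adjusted p of 0.0462 and 0.0295.

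**Figure D4:**
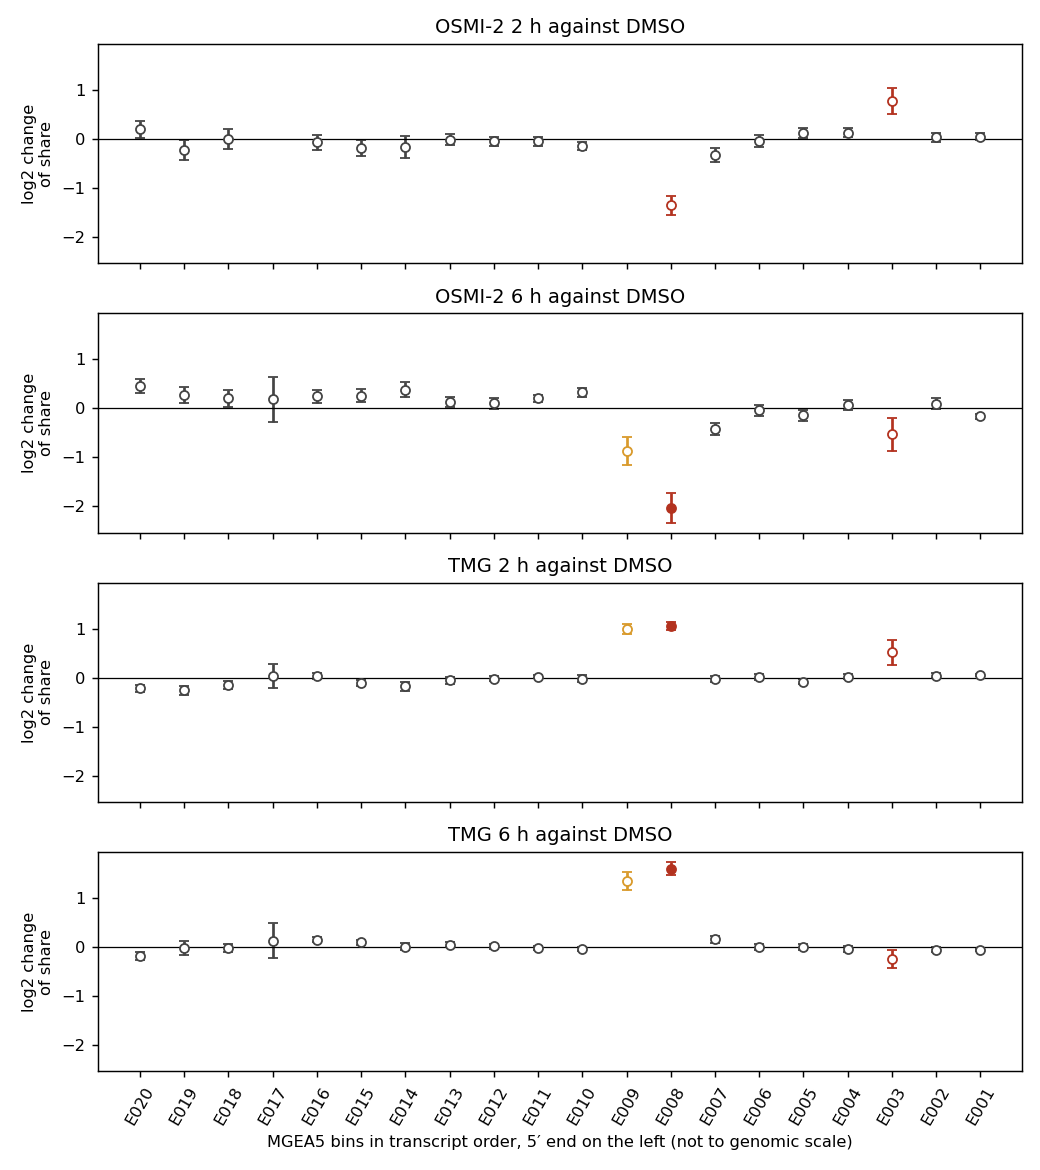
Log2 change of each MGEA5 bin's share against DMSO (± SE, edgeR) in transcript order, with the 5′ end on the left; filled points passed an adjusted p of 0.05, red marks the detained introns and orange E009. E008 is filled in 3 of 4 panels, and the bins outside both introns stay between -0.42 and 0.45.

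The cassette exons differed in coverage. E014 held 1.10% to 2.31% of counts over all libraries, or 11.1% to 23.3% per kilobase, close to the 11.6% to 23.5% per kilobase of the constitutive bin E015. E017 held 0% to 0.345%, with 0 counts in 1 library, or at most 2.60% per kilobase. E012, which GENCODE transcripts such as OGA-205 leave out, held 3.31% to 5.10%. None of the 3 passed in a drug comparison.

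The last bin, E001, held 39.1% to 50.7% of the counts in the OSMI-2 experiment and 29.7% to 31.9% in the TMG experiment, without overlap. The first bin, E020, held 2.35% to 4.63% and 4.09% to 5.77%. Counts were thus shifted to the 3′ end of MGEA5 in the OSMI-2 experiment, also in its DMSO libraries; the part of this in differences between the experiments was not tested. Counts rose with GC content of genes in the OSMI-2 experiment and fell with it in the TMG experiment, with slopes of 0.229 to 0.930 and of -0.697 to -0.403 (log2 per 10 points of GC).

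The ends of the short and the long form were compared by 2 values, since the tables list no bin of the short end. The first is E009, the sole bin outside detained introns within that intron, over the bins 3′ of the intron, as log2. Treated minus DMSO was -1.02 and -0.69 with OSMI-2 at 2 h and 6 h, and 0.95 and 1.41 with TMG. Groups did not overlap in any of the 4 comparisons, and the exact permutation tests (two-sided) gave p = 0.1, 0.2, 0.1 and 0.1, the smallest each can give, or 0.133, 0.2, 0.133 and 0.133 adjusted over the 4. E009 can hold reads of an unspliced intron, so these values do not give the level of the short form.

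The second value is the count of the bins 5′ of the intron over that of the bins 3′ of it, as log2. A form that ends in the intron adds to the first set only. Treated minus DMSO was -0.07 and 0.36 with OSMI-2 at 2 h and 6 h, and -0.10 and 0.03 with TMG (exact permutation p = 0.8, 0.2, 0.1 and 0.5, and 0.8, 0.4, 0.4 and 0.667 adjusted over the 4). The smallest p is again 0.2 at OSMI-2 6 h and 0.1 in the others, so none could pass. At OSMI-2 6 h the groups were apart, at -0.73 and -0.55 against -1.06 to -0.97 in DMSO. They were also apart at TMG 2 h, at -0.12 to -0.07 against -0.01 to 0.01. With 2 exons on each side alone, E010 and E011 over E005 and E006, the differences were -0.09, 0.34, 0.04 and -0.03. At OSMI-2 6 h that ratio too was apart, at 1.16 and 1.26 against 0.81 to 0.95.

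The pathway around MGEA5 was taken from a list of 10 genes: OGT, the enzymes that make the sugar donor (GFPT1, GFPT2, GNPNAT1, PGM3, UAP1), the salvage kinase NAGK, the hexosaminidases HEXA and HEXDC, and NAGLU, a lysosomal enzyme that removes N-acetylglucosamine. Of these 9 were tested. At OSMI-2 2 h 0 passed in edgeR, with 0 at an unadjusted p under 0.05, and 1 was lower in each of the other comparisons. Over all genes tested, 2.37% were called lower at OSMI-2 6 h, 6.67% at TMG 2 h and 4.84% at TMG 6 h, and nothing is read from 1 of 9. The median log2 change of the list was 0.03, 0.09, -0.02 and -0.08 at OSMI-2 2 h and 6 h and TMG 2 h and 6 h.

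OGT, the enzyme opposite to MGEA5, fell at 6 h with both drugs. It had 66.7 and 44.2 CPM with OSMI-2 at 6 h against 113 to 257 CPM in DMSO, and fell by 1.85 on the log2 scale (SE 0.33; edgeR adjusted p = 3.46e-04). That call was lost without OSMI-2 library a (edgeR adjusted p = 0.1435) or b (0.5572). With TMG at 6 h it had 152 to 177 CPM against 198 to 237 CPM in DMSO, and fell by 0.48 (SE 0.07; edgeR adjusted p = 0.00164), while MGEA5 rose. The other gene that passed was HEXA, a lysosomal hexosaminidase, which fell by 0.30 with TMG at 2 h (SE 0.06; edgeR adjusted p = 0.003443). Its level was 152 ± 15.3 CPM (SD, n = 3) with DMSO and 127 ± 1.36 CPM (SD, n = 3) with TMG. In the fit of all libraries neither OGT at TMG 6 h nor HEXA at TMG 2 h passed (edgeR adjusted p = 1 for both). Few genes did: that fit called 2 of 12716 at TMG 6 h and 0 at TMG 2 h.

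Likeness was measured by the Pearson correlation, over the 23 libraries, of each library's log2 difference from the mean of its own DMSO group; libraries of a group share treatment and experiment, so the points are not independent. For E008, among 4309 other detained introns, the most alike were both detained introns of OGT, OGT_E007 (r = 0.93) and OGT_E005 (r = 0.92), followed by RP11-23J9.4_E055 (0.91), CLSTN1_E005 (0.91) and COPG1_E024 (0.90). OGT_E007 differed from DMSO by -2.66 and -2.92 (log2) with OSMI-2 at 2 h and 6 h, and by 0.30 and 1.42 with TMG. In the edgeR share fits the median detained intron changed by -0.06, -1.64, 0.30 and 0.15 in that order, and E008 by -1.36, -2.03, 1.06 and 1.60. At TMG 2 h OGT_E007 thus moved as the median did, and less than E008. E003 of MGEA5 itself had r = -0.03 with E008 and ranked 4200 of 4309. For the gene level, among 10324 genes, those most alike included the merged group AC004076.7+AC003002.6+AC003002.4 (r = 0.92), ZNF202 (0.91), MTERFD2 (0.91) and SENP5 (0.91).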

How the data were processed

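Polyadenylated RNA of HEK293T cells was sequenced as stranded libraries, per the labels' protocols. The submitters' processing notes name STAR and hg19; the counter, the annotation and the use of strand are not given in the sources used here. The authors deposited 4 tables of whole-number counts per bin, not normalized, for 23 libraries, with 0 columns left unused, and, per the file headers, the result of their own test of bin usage (a p-value, raw and adjusted, and a log2 fold change). A read spanning several bins may be counted in each, so bins are not independent.

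A gene's count is the total of all its bins other than detained introns. Shares were tested over all bins with edgeR 4.0.16 (quasi-likelihood F test) in R 4.3.3, with the log of the gene count plus 1 as offset, for bins and genes with a mean count of at least 10. Bins of genes with a single bin outside detained introns, whose share is fixed at 100%, were held in the main share fits. They were also held in the share fits with 1 library left out. Genes were tested with TMM factors over genes and introns together and filterByExpr. Tests were two-sided, with Benjamini-Hochberg adjustment over all bins or genes and a threshold of 0.05. Standard errors were derived from the fold change and the F statistic. CPM use TMM factors over all 23 libraries. Each fit holds the groups compared. Alternatives were DESeq2 1.42.0, limma 3.58.1, other filters, scalings and denominators, a fit of all libraries, the authors' test, and each library left out. The ratio of E009 to the bins 3′ of the intron used a pseudocount of 0.5. The fits were tested on simulated data for TMG 6 h only, with a fixed dispersion. Of bin shares changed by 1 on the log2 scale, 88% of rises and 68% of falls were called. Of those changed by 2, 100% were called in both directions. For genes the figures were 100% and 98% at a change of 1, and 100% at 2. The OSMI-2 comparisons were not simulated.

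The text names MGEA5, its bins, members of the O-GlcNAc list past the threshold, and the 5 most alike genes (mean of at least 50 counts in every group) and detained introns (mean of at least 10). A few list members and named genes are not reported here. The members and lists were chosen with earlier results of these data known. The planned comparison of the short end could not be made as written, because the tables list no bin of it. Pairs of libraries within groups differed beyond sampling noise (chi-square over degrees of freedom 4.34 to 304). GENCODE v29 (GRCh38) gave sequences and exon lengths, matched to bins by exon order and length; hg19 coordinates are those of the tables.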

Additional observations from a re-analysis of the deposited data

Results flagged for a closer look

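The effects of OSMI-2 and TMG on the share of E008 differed by -2.42 at 2 h and by -3.64 at 6 h, and on the share of E009 by -2.24 at 6 h (log2, OSMI-2 effect minus TMG effect). These were singled out because the test of the difference itself passed in edgeR, with adjusted p of 0.002075, 2.28e-04 and 0.005014. Each drug has DMSO libraries of its own, and the experiments also differ in the share of counts in the last bin of MGEA5 (39.1% to 50.7% against 29.7% to 31.9%). The part of that in the differences was not tested. Leaving out each library in turn, the E008 differences stayed between -2.57 and -2.30 at 2 h and between -3.79 and -3.49 at 6 h, and passed each time. The E009 difference at 6 h stayed between -2.49 and -2.10 and passed without 10 of the 11 libraries; without OSMI-2 library b it was -2.25 (edgeR adjusted p = 0.0555).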

How the results depend on the processing

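No paired analysis was possible because the count columns carry letters, which the labels do not tie to replicate numbers. Leaving out each library in turn moved the gene level between -0.78 and -0.45 (OSMI-2 2 h), -2.08 and -1.66 (OSMI-2 6 h), 0.11 and 0.16 (TMG 2 h) and 0.68 and 0.75 (TMG 6 h). It moved the share of E008 between -1.50 and -1.23, -2.19 and -1.89, 1.01 and 1.16, and 1.49 and 1.75 in the same order. The gene level fall at OSMI-2 6 h lost its call without OSMI-2 library a (-2.08) or b (-1.79), and so did E008 there (-1.97 and -2.11). E008 at TMG 2 h lost it without 3 of 6 libraries and in limma (1.07), and at TMG 6 h without DMSO library c (1.57) and in limma (1.61). All of these fits of E008 held the single-bin genes. The gene level at TMG 6 h lost its call in the fit of all libraries (0.75), where 2 of 12716 genes were called. Calls were gained for the gene level at TMG 2 h with TMM over genes only (0.17) and DESeq2 (0.17), for E008 at OSMI-2 2 h in the authors' deposited table (-1.31), and for E008 in DMSO of the TMG experiment without single-bin genes (-0.48). The cause was not tested. No alternative turned the direction of the gene level, of E008 or of the E009 ratio.

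E003 at TMG 6 h (-0.24) turned to 0.48 against library size and to 0.021 without DMSO library b (lowest -0.38 without DMSO library a). Its drug difference at 6 h (-0.29) turned to 0.12 without OSMI-2 library b (lowest -0.72 without library a). The E009 difference between times under OSMI-2 (0.10) turned to -0.14 without DMSO 2 h library c, to -0.19 without OSMI-2 2 h library a and to -0.04 without DMSO 6 h library c (highest 0.32). The ratio of bins 5′ over 3′ of the intron turned to 0.038 at TMG 2 h and -0.031 at TMG 6 h with 2 exons on each side. Against library size, where a change in gene level moves every bin, 19 bins passed at OSMI-2 6 h and 18 at TMG 6 h. Shares gave 1 each. Over all genes, 11977 of 131312 bins and 684 of 133165 bins passed against library size. The fit of all libraries (E010) and other bins as denominator (E001) each gave 1 more at OSMI-2 6 h. These fits called 7630 of 136034 and 7546 of 131312 bins. DESeq2 called 2 at both TMG times, E008 and E009, among 59 of 137435 bins at 2 h and 13 of 133165 at 6 h. With other bins as denominator the same 2 were called, among 238 of 137435 bins at 2 h and 21 of 133165 at 6 h. The fit of all libraries called them at TMG 6 h, among 8 of 136034 bins. The fit without the filter on low counts called them at TMG 2 h, among 5 of 162729 bins. The authors' deposited test called 1, 4, 2 and 3 (OSMI-2 2 h, OSMI-2 6 h, TMG 2 h, TMG 6 h). Of all bins, 0.0111%, 6.46%, 0.247% and 0.0635% passed in that test. Without single-bin genes 2 passed at both TMG times and 5 in the drug difference at 6 h. Over all genes, 254 of 136867 bins passed at TMG 2 h and 17 of 132668 at TMG 6 h. In the drug difference 6321 of 135686 did. With OSMI-2, E008 had as few as 10 counts and E009 as few as 3 in a library, so counting error limits both.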
